A study of Homo sapiens with 12 samples.

Results

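XMU-MP1 is a small-molecule inhibitor of the kinases MST1 and MST2, and its action was measured here in cells from which most of the message for YAP and TAZ had been removed. The comparison sets 3 libraries treated with XMU-MP1 against 3 that received the DMSO vehicle, all 6 of them transfected with siRNA against YAP and TAZ, out of 12 libraries in the series. The libraries were chosen by their labels alone, and all 46931 genes of the count table entered, of which 18143 had enough counts to be tested. The cells were MCF10A, an immortalised and non-tumorigenic human mammary epithelial line. For both groups a pair of siRNA sets directed at YAP and TAZ was transfected at 11 nM. After 48 h they were given 5 µM XMU-MP1 (siYT_XMU) or DMSO (siYT_DMSO) for 6 h. The submitters' letters a, b and c name the libraries of a group. The labels do not say whether the letters stand for separate cultures, so p-values here reflect only how these samples vary, which may be technical. The other 6 libraries, with control siRNA at 22 nM and the same treatments (siC_DMSO and siC_XMU), entered the fit and served for the test of where the response differed between the siRNA arms. A single transfected line is the whole model, and the knockdown is incomplete, as the counts of the targeted genes below show.

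In the Hippo pathway MST1 and MST2 (genes STK4 and STK3) activate LATS1 and LATS2, which phosphorylate YAP and TAZ (genes YAP1 and WWTR1), coactivators that are then kept out of the nucleus. YAP and TAZ do not bind DNA themselves and reach their target genes through the TEAD factors. In mammary epithelium the pathway links cell density and attachment to growth and to the balance of basal, luminal and squamous traits. With YAP and TAZ depleted, the comparison asks which parts of the response to MST1/2 inhibition appear when little of the pathway's usual output is left.

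The libraries held 25246464 to 58389794 counts in siYT_DMSO, and 37044804 and 60832492 in siYT_XMU a and b. Library siYT_XMU c stood apart, with 8243351 counts, of which 35.0% were ribosomal RNA and 12.6% came from the single gene SLCO5A1, against 1.86 to 8.35% and 0.233 to 5.72% in the other 5. It detected 15135 genes where the others detected 17950 to 20704, and a count of 0 in it allows up to 0.622 counts per 1e6 (CPM), against 0.0496 to 0.1251 CPM elsewhere in the 6 libraries. The ribosomal RNA share includes the mitochondrial kind, which alone was 26.4% of the counts of siYT_XMU c and 1.75 to 6.10% in the other 5. All 14 markers of mammary epithelial lines were detected in both groups, with keratin 17 (KRT17) the highest, and their summed level was 8977 to 22018 CPM in siYT_DMSO and 14881 to 25539.5 CPM in siYT_XMU. Of 13 leukocyte markers 7 were at 0 in every siYT_DMSO library and 4 in every siYT_XMU library (among them CD3D and NKG7 in both), and most of the summed 94.1 to 170 and 75.7 to 214 CPM was CD68. Fibroblast markers summed to 25.4 to 74.9 and 26.8 to 145 CPM, and endothelial markers to 54.2 to 70.7 and 47.0 to 74.2 CPM. In edgeR no member of these 3 lists passed the threshold among 4, 10 and 5 tested, and 2 endothelial markers had an unadjusted p under 0.05 and 1 was called by DESeq2. Fewer cells of a kind and less RNA per cell cannot be told apart in bulk libraries such as these.

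XMU-MP1 lowered more genes than it raised after the knockdown. A gene is called here where its Benjamini-Hochberg adjusted p from edgeR's quasi-likelihood test lies under 0.05, and 761 genes were called higher (4.19% of those tested) and 1437 lower (7.92%). In 726 of the higher and 1429 of the lower genes the libraries of the groups did not overlap, as in 10.5% (higher) and 16.7% (lower) of all tested genes. At least 2-fold changes made up 594 of the rises and 986 of the falls, and the median log2 fold change over all tested genes was 0.02. Genes that rose started from a median of 3.17 CPM in siYT_DMSO and genes that fell from 35.0 CPM, beside 8.76 CPM for all tested genes. The siYT_DMSO level is also the base of each fold change, so level and change are not independent. The genes that fell were also longer in the genome, with a median span of 32.5 kb against 20.5 kb for all and 17.4 kb for those that rose. Without siYT_XMU c the calls were 1277 higher (6.65% of 19211 tested) and 1608 lower (8.37%). Of the calls made with all libraries 613 and 1273 were made again without it, and 0 changed sign. Leaving out siYT_DMSO a, b or c gave 482, 445 and 372 higher calls, and leaving out siYT_DMSO b or c gave 912 and 787 lower calls. A fit of the 6 libraries alone called 322 and 544. It did not call 43 of 128 called genes that were followed through every fit, many of which are not named here.

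**Figure D1:**
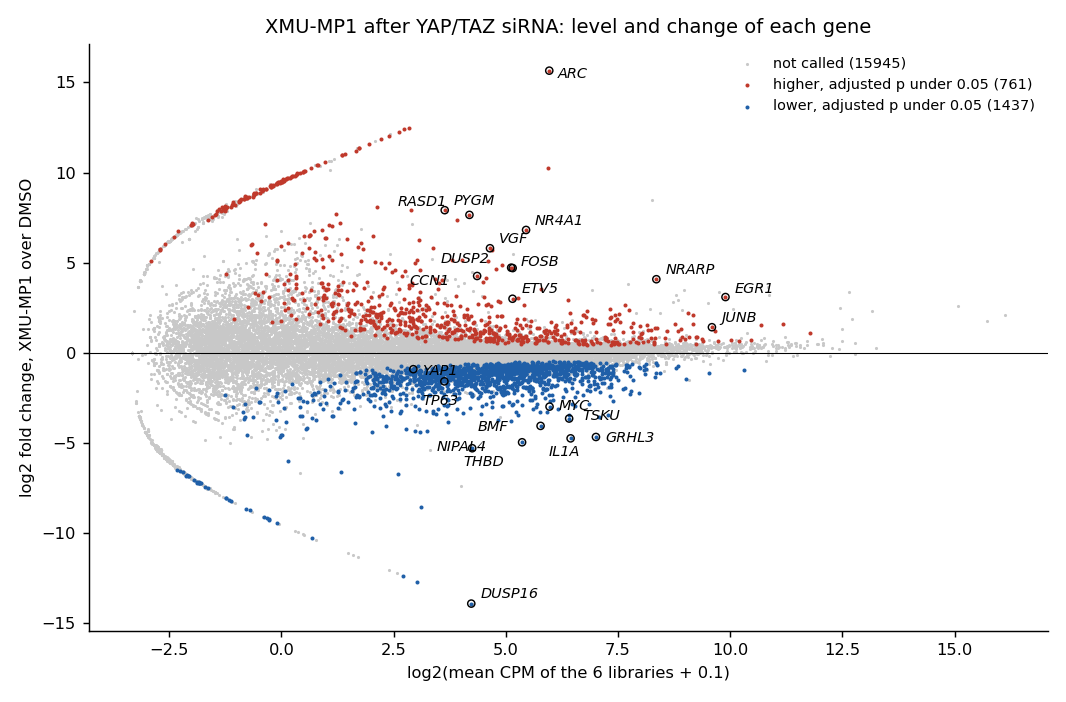
Each point is a gene tested in the comparison of XMU-MP1 with DMSO after YAP/TAZ siRNA: the horizontal axis is the log2 of the mean CPM of the 6 libraries plus 0.1 and the vertical axis the log2 fold change. Red marks the 761 genes called higher and blue the 1437 called lower, the red points reach further to low levels, and the curved outer arcs are genes with no count in 1 of the 2 groups.

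Both siRNA targets were low before the inhibitor was added. YAP1 (chr11:102109957-102233424, plus strand, GRCh38.p13) stood at 201, 223 and 193 CPM in siC_DMSO libraries a, b and c and at 12.6, 9.09 and 7.84 CPM in siYT_DMSO. With XMU-MP1 it read 6.63, 3.81 and 5.39 CPM, below every siYT_DMSO library, a log2 fold change of -0.90 (SE 0.22, adjusted p = 0.0221 in edgeR). WWTR1 was at 34.6, 24 and 38.2 CPM in siC_DMSO, at 4.30, 4.47 and 3.66 CPM in siYT_DMSO and at 2.11, 1.24 and 0 CPM in siYT_XMU, a log2 fold change of -1.62 (SE 0.48, adjusted p = 0.0463). Both falls are small in absolute terms and neither call is stable. That of YAP1 ended without siYT_DMSO a (adjusted p = 0.0716) or siYT_XMU b (0.0615). That of WWTR1 ended without any 1 of 10 libraries (adjusted p up to 0.113, the 2 exceptions being siYT_XMU a and c), and a fit of the 6 libraries alone called neither (adjusted p = 0.245 and 0.303). The inhibited kinases' own messages did not pass the test, with log2 fold changes of 0.23 (SE 0.21) for STK3 and 0.34 (SE 0.29) for STK4. LATS1 was at 0.05 (SE 0.40), at -0.08 without siYT_DMSO b and at -0.72 without siYT_XMU c (adjusted p = 0.0543). LATS2 was at -0.46 (SE 0.27), and from -0.72 without siYT_XMU c to -0.25 without siYT_XMU a.

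Within the Hippo pathway list 5 of 30 tested members were lower and 0 higher, with 2 members higher at an unadjusted p under 0.05, 1 in DESeq2, and a list median of -0.30. TEAD3, a DNA-binding partner of YAP and TAZ, fell from 173, 204 and 213 CPM to 81.0, 108 and 72.9 CPM, a log2 fold change of -1.17 (SE 0.17, adjusted p = 0.00128). AMOTL1, an angiomotin-family protein that binds YAP, fell from 180.4, 170.2 and 193 CPM to 63.2, 50.6 and 103 CPM (-1.33, SE 0.22, adjusted p = 0.0026). The groups were separate for both genes. VGLL3, a TEAD cofactor, was lower by a log2 fold change of -1.97 (adjusted p = 0.0215), a call that ended without siYT_DMSO a (0.0651). The list count was 2 without siYT_DMSO a, 3 without siYT_XMU b, 8 without siYT_XMU c and 2 in the 6 libraries alone.

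Among 26 genes known as YAP/TAZ targets, 4 were higher and 3 lower, with a median of 0.27, so that the list did not move one way. Without siYT_XMU c 3 were higher and 5 lower, and the median was -0.16. The matricellular gene CCN1 rose from 2.54, 1.08 and 2.48 CPM to 11.0, 63 and 42.5 CPM, a log2 fold change of 4.26 (SE 0.59, adjusted p = 0.00103), with all siYT_XMU libraries above all siYT_DMSO libraries. CCN2, its close relative, read 1.08, 0.503 and 0.562 CPM against 0.968, 6.94 and 18 CPM, so its groups overlapped through siYT_XMU a. Its log2 fold change of 3.53 (SE 0.91, adjusted p = 0.0264) was no longer called without siYT_XMU c (2.56, adjusted p = 0.0624) or without siYT_DMSO a, b or c (0.0514, 0.0981 and 0.104). IGFBP3, a secreted binding protein of insulin-like growth factors, rose by 2.75 on the log2 scale (adjusted p = 0.00882). FOXF2, FJX1 and the kinase gene NUAK2 fell by 3.06, 2.75 and 1.56 (adjusted p = 0.00662, 0.00677 and 0.00896). The voom fit with library weights did not call FOXF2 or FJX1 (adjusted p = 0.0646 and 0.102). The higher count was 2 without siYT_DMSO b or c, the lower count 5 without siYT_XMU c, and in the 6 libraries alone the counts were 1 and 0.

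TP63, which encodes the basal transcription factor p63, is the gene that the series title concerns. It read 23.9, 10.8 and 19.7 CPM in siYT_DMSO and 3.58, 3.25 and 12.4 CPM in siYT_XMU. The groups overlapped because siYT_XMU c lay above siYT_DMSO b. The log2 fold change of -1.58 (SE 0.50) was not called (adjusted p = 0.0615), and without siYT_XMU c it was -2.41 (adjusted p = 0.0033). With all libraries, DESeq2 and the voom fit with library weights called TP63 lower, at -1.47 and -2.09 (adjusted p = 0.0243 and 0.0184). Of the 22 alternatives to the main fit, 17 did not call it. With control siRNA the log2 fold change of TP63 was -3.08 (adjusted p = 0.00415 in edgeR). The difference between the siRNA arms, knockdown minus control, was 1.5 (SE 0.69, adjusted p = 0.271) and was not called. A loss of the response after the knockdown was therefore not shown. The values are per gene and do not separate its TA and deltaN transcripts.

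Many immediate early genes rose. They are induced within minutes by growth factors and stress without new protein synthesis and mostly encode transcription factors. Of 28 tested members of the immediate early and AP-1 list 11 were higher and 2 lower, with a median log2 fold change of 0.71. Leaving out each library in turn kept the higher count between 9 and 12. The sequences just before the starts of 6 genes that rose are shown first, for readers who want to see which regulatory letters they hold: the early genes FOS, FOSB and EGR1, and VGF, RASD1 and CXCL8, which were among the largest rises or differed most between the siRNA arms and were chosen after their values were seen. Each is the 200 bases upstream of the RefSeq transcript start on GRCh38.p14, 5′ to 3′ on the gene's strand. Capitals mark TGACG on either strand (below, the CRE core, bound by CREB and ATF factors), its full palindrome TGACGTCA (the full CRE), the AP-1 motif TGANTCA, the CArG box bound by serum response factor, and the TATA motif TATAAA.
FOS (chr14:75278628-75278827, plus strand): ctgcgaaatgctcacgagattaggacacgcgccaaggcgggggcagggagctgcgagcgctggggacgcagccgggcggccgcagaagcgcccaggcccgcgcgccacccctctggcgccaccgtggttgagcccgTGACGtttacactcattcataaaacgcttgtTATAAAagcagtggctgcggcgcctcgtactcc
FOSB (chr19:45467796-45467995, plus strand): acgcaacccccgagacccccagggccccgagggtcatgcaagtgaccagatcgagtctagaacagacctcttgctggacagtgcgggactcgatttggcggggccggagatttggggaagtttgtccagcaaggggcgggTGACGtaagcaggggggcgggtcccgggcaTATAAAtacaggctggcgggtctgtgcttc
EGR1 (chr5:138465279-138465478, plus strand): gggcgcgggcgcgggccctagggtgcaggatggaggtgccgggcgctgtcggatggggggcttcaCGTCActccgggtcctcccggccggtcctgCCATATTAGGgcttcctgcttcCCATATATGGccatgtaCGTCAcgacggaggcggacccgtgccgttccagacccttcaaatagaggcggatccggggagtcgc
VGF (chr7:101165570-101165769, minus strand): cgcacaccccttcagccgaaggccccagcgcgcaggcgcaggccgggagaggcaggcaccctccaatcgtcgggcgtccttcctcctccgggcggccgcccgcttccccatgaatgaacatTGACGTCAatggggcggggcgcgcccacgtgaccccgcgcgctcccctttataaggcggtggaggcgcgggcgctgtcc
RASD1 (chr17:17496396-17496595, minus strand): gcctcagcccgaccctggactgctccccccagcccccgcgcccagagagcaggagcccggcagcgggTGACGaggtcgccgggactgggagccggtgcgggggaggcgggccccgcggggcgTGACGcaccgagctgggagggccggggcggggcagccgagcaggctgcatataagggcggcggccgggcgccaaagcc
CXCL8 (chr4:73740369-73740568, plus strand): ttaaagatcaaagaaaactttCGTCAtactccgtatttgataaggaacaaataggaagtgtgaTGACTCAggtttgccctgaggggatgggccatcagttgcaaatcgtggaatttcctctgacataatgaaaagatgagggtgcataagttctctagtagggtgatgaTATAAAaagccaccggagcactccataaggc

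FOS and FOSB share a layout, with the CRE core at positions -64 and -60 and the TATA motif at -33 and -30 from the start, counted to the first base of the match. EGR1 holds the CRE core at -135 and -66 and CArG boxes at -105 and -83. VGF holds the full CRE at -79 and, left in lower case, the TATA motif on the opposite strand at -32. RASD1 holds the CRE core at -133 and -78, and CXCL8 holds the CRE core at -179, an AP-1 motif at -137 and the TATA motif at -31. Motifs were searched on both strands in the 250 bases before each start, and the CRE core also counts inside the full CRE. RefSeq windows were found for 8 of the 11 early genes that rose, 12 windows in all, of which 6 held the CRE core and 4 the TATA motif. The CRE core was in 28.9% of the windows of all genes that rose, 24.3% of those of genes that fell, 26.8% of those of tested genes and 21.2% of all 35116 windows. For the full CRE these shares were 3.44, 2.45, 2.32 and 1.65%. The TATA motif was in 13.5% of the windows of genes that rose, 5.75% for genes that fell, 6.77% for tested genes and 10.7% for all windows. The AP-1 motif was in 4.68, 5.86, 5.08 and 6.57% and the CArG box in 1.65, 1.76, 1.07 and 1.16%. These are counts of letters and do not show that a factor bound.

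FOSB (chr19:45467996-45475179, plus strand, GRCh38.p13), an AP-1 subunit, rose from 2.00, 3.07 and 2.45 CPM to 21.8, 98.9 and 79.6 CPM, a log2 fold change of 4.72 (SE 0.49, adjusted p = 0.000206 in edgeR). FOS, its relative, rose from 82.3, 37.4 and 74.6 CPM to 224, 325 and 284 CPM (2.10, SE 0.36, adjusted p = 0.00309). JUNB, a partner of both, rose from 416, 373 and 468 CPM to 1403, 1160.1 and 808 CPM (1.42, SE 0.22, adjusted p = 0.00187). The siYT_XMU libraries lay above the siYT_DMSO libraries for all 3 genes. EGR1, a zinc-finger factor, went from 191, 153 and 254 CPM to 1818, 797 and 2495 CPM (3.10, SE 0.59, adjusted p = 0.00609). On the scale per length, FPKM, EGR1 reached a mean of 384 with XMU-MP1 and was the more abundant message beside FOS at 98.1 and FOSB at 12.7.

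ARC, a gene best known from activated neurons, had no count in any siYT_DMSO library and 229, 86.5 and 59.5 CPM in siYT_XMU. Against a floor of 3 counts per library that is at least 1610-fold higher (adjusted p = 0.000403), and the floor covers counting error only. NR4A1, an orphan nuclear receptor, rose from 1.08, 0.309 and 0.96 CPM to 34.1, 200.2 and 25.1 CPM, a log2 fold change of 6.82 (SE 0.92, adjusted p = 0.00085). Library siYT_XMU b was the highest for NR4A1, and without it the change was 5.25 (adjusted p = 0.000793). ATF3, a stress-induced factor of the ATF family, went from 2.25, 2.28 and 1.42 CPM to 8.22, 128 and 38.7 CPM (4.89, SE 0.86, adjusted p = 0.00373), and 3.53 without siYT_XMU b (0.00719). The voom fit with library weights did not call ATF3 (adjusted p = 0.0898). CSRNP1, an AXIN1-induced nuclear protein, moved less and with a small spread, from 44.3, 57.1 and 55.4 CPM to 234, 149 and 183 CPM (1.85, SE 0.18, adjusted p = 0.000174). The other higher members were IER3, NR4A2 and SRF. The call of NR4A2 ended without siYT_DMSO a, siYT_DMSO c or siYT_XMU b (adjusted p = 0.0538, 0.0759 and 0.0671 in edgeR) and in the voom fit (0.152). The lower members were FOSL2 and KLF6, and that count of 2 was 1 without siYT_DMSO a or b and 0 without siYT_DMSO c or siYT_XMU a. The library plot places these genes beside the control siRNA libraries.

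**Figure D2:**
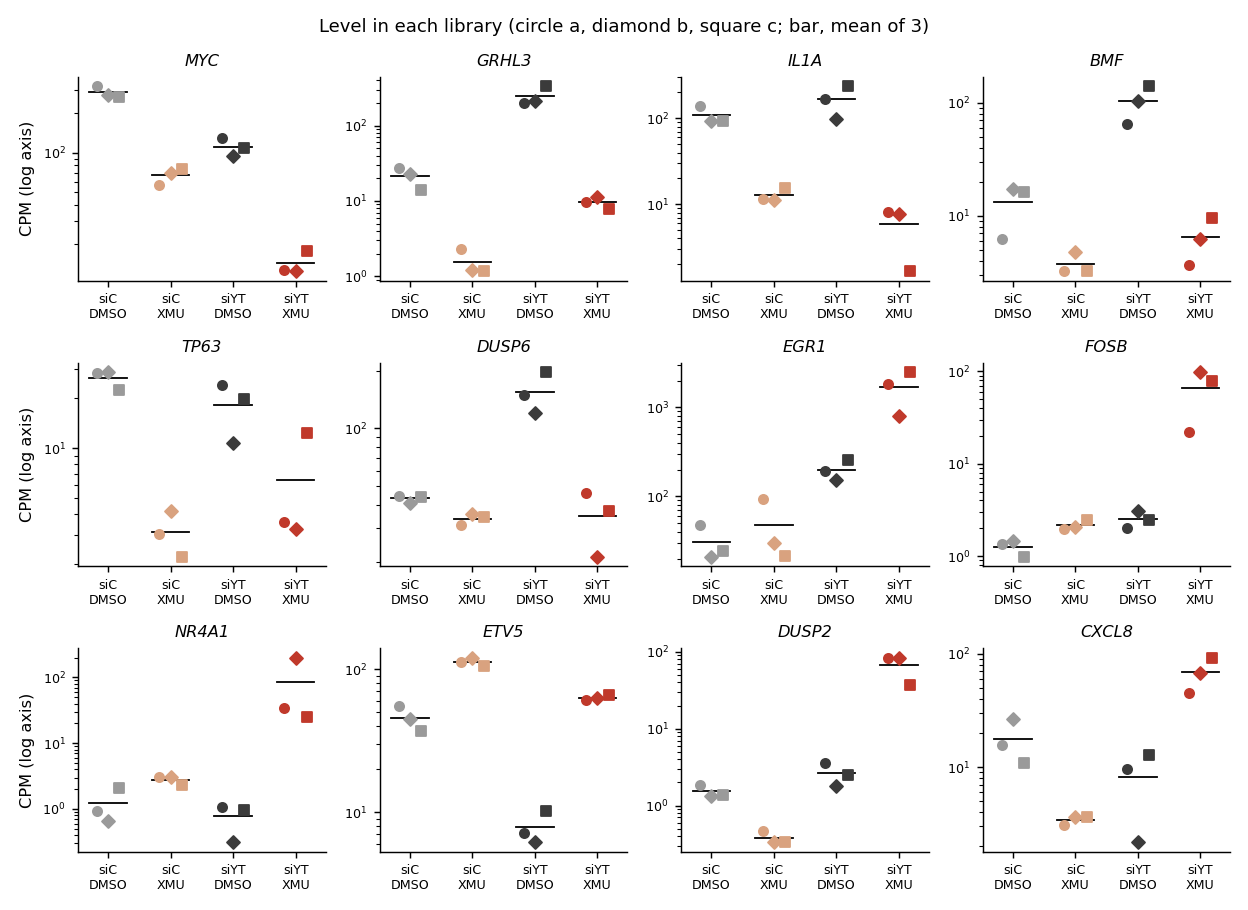
Level of 12 genes in every library, in CPM on a log axis, for the 4 groups siC_DMSO, siC_XMU, siYT_DMSO and siYT_XMU; circle, diamond and square are libraries a, b and c, and the bar is the group mean. MYC, GRHL3, IL1A, BMF and DUSP6 are lower and EGR1, FOSB, NR4A1, ETV5, DUSP2 and CXCL8 higher in every siYT_XMU library than in any siYT_DMSO library, while TP63 overlaps through siYT_XMU c.

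Genes that ERK signalling induces and that in turn damp it moved both ways. Of 22 tested members of the ERK feedback list 3 were higher and 5 lower, with a median of -0.64. DUSP2 (chr2:96143166-96145468, minus strand), a nuclear phosphatase of ERK, rose from 3.63, 1.82 and 2.50 CPM to 84.2, 83.6 and 36.9 CPM, a log2 fold change of 4.70 (SE 0.39, adjusted p = 8.05e-05). DUSP1, a nuclear phosphatase that acts mainly on p38 and JNK, rose from 142, 143 and 148 CPM to 337, 605 and 313 CPM (1.54, SE 0.24, adjusted p = 0.00203). The transcription factor gene ETV5 rose from 7.17, 6.15 and 10.2 CPM to 60.8, 62.4 and 65.5 CPM (3.00, SE 0.22, adjusted p = 4.37e-05), with almost no spread within siYT_XMU. DUSP6 (chr12:89347235-89352501, minus strand), the cytoplasmic phosphatase of ERK, went the other way, from 149.8, 120.5 and 197 CPM to 45.9, 21.3 and 37.1 CPM (-2.17, SE 0.26, adjusted p = 0.000467). PHLDA1 fell by 1.89 on the log2 scale (adjusted p = 0.00185). So 2 phosphatases of ERK changed in opposite directions, each with separate groups. The lower count was 3 without siYT_DMSO a or c.

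DUSP16, a JNK phosphatase, was listed at 44.1, 31.8 and 36.0 CPM in siYT_DMSO and at 0 in all siYT_XMU libraries, and is 1 of the 5 lower members (adjusted p = 0.0211). It was also at 0 in all siC_XMU libraries and in siC_DMSO b, where the 2 other siC_DMSO libraries read 9.51 and 8.15 CPM. No source used here says how the authors assigned reads, so absent reads and reads given to another feature cannot be told apart at these zeros, and no fold is given. The call ended without siYT_DMSO c, siYT_XMU a or siYT_XMU b (adjusted p = 0.0526, 0.0529 and 0.0551). NAB2, a corepressor that binds EGR1, fell from 102, 131 and 110.3 CPM to 27.5, 17.4 and 11.2 CPM while EGR1 itself rose (log2 fold change -2.60, SE 0.33, adjusted p = 0.000658). NAB2 overlaps STAT6 on the other strand at its end. The labels name a stranded kit but the sources used here do not state whether counting used the strand, so reads of such pairs cannot be told apart.

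MYC, the growth-promoting transcription factor, was among the most stable falls. It read 129.8, 95.1 and 109 CPM in siYT_DMSO and 12.7, 12.4 and 17.8 CPM in siYT_XMU, a 7.89-fold fall (log2 fold change -2.98, SE 0.20, adjusted p = 2.13e-05). Its groups lay far apart in every library. Of 11 tested members of the MYC network 3 were lower, the others being MNT, a MAX partner (-0.95, adjusted p = 0.00761), and MLX, a MAX-like protein that pairs with MNT (-0.79, adjusted p = 0.0198), and 0 were higher (1 at an unadjusted p under 0.05 and 1 in DESeq2). The MLX call ended without siYT_DMSO b, siYT_DMSO c or siYT_XMU a (adjusted p = 0.0785, 0.0614 and 0.0606).

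Ribosome biogenesis, a process that MYC is known to drive, moved both ways. Of 30 tested members 4 were higher and 3 lower, with a median of 0.13. Nucleolin (NCL), a major nucleolar protein, rose from 398, 347 and 388 CPM to 664, 715 and 722 CPM (log2 fold change 0.89, SE 0.14, adjusted p = 0.00226). NOP56, a core protein of box C/D ribonucleoproteins, rose by 1.37 (adjusted p = 0.0058) and NOLC1, a nucleolar chaperone, by 0.75 (adjusted p = 0.00812), although NOLC1 was not called in the 6 libraries alone (0.0549). UBTF, which binds ribosomal DNA for RNA polymerase I, fell from 76.5, 80.3 and 89.1 CPM to 30.4, 30.1 and 38.7 CPM (-1.32, SE 0.20, adjusted p = 0.00155). RRS1, a large-subunit assembly factor, fell by 2.32 (adjusted p = 0.00793), a call that the 6 libraries alone did not make (0.058). The higher count was 7 without siYT_XMU c.

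Cytosolic ribosomal protein genes depended on siYT_XMU c. With all libraries 0 of 28 were called either way by edgeR, 3 had an unadjusted p under 0.05 and 3 were called by DESeq2, all higher, although all 28 log2 fold changes were positive with a median of 0.38. Without siYT_XMU c the median was 0.63 and 26 of 28 were called higher. The host genes of small nucleolar RNAs also depended on that library, with 2 of 16 higher in all libraries and 8 without siYT_XMU c, and 1 without siYT_DMSO a, b or c or without siYT_XMU b. Of 26 proteasome genes 0 were called (1 in each direction at an unadjusted p under 0.05, 1 higher in DESeq2), against 5 higher without siYT_XMU c. A fit without the counts of ribosomal RNA and SLCO5A1 gave the same counts for these 3 lists as all genes did, with 0, 2 and 0 higher and 0 lower. Library siYT_XMU c stayed in that fit, so whether its share of ribosomal RNA lies behind these differences was not tested.

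Calls were few among the epidermal differentiation genes. The list holds the transcription factors of the programme and the structural proteins, proteases and lipid enzymes of the cornified layer. Of 42 tested members 4 were lower, a share near the 7.92% over all genes. They were all among its 5 transcription factors (a split made after the values were seen). No member was higher, with 2 higher at an unadjusted p under 0.05 and 0 in DESeq2. GRHL3 (chr1:24319333-24364482, plus strand), a grainyhead factor of barrier formation, fell from 201, 212 and 330.2 CPM to 9.71, 11.3 and 7.87 CPM, 25.3-fold (log2 fold change -4.66, SE 0.36, adjusted p = 5.37e-05). ZNF750, a late differentiation factor, fell from 105, 91.6 and 99.7 CPM to 16.1, 11.3 and 2.28 CPM (-3.26, SE 0.69, adjusted p = 0.0102). GRHL1, the paralogue of GRHL3, fell from 204, 192 and 220.4 CPM to 77.0, 100.2 and 55.1 CPM (-1.4, SE 0.26, adjusted p = 0.00484). ELF3, an epithelial ETS factor, fell by 2.00 on the log2 scale (adjusted p = 0.0228), a call that ended without siYT_DMSO b, siYT_DMSO c or siYT_XMU a (0.0673, 0.0717 and 0.0755). The fifth factor, OVOL1, read 243, 183 and 245 CPM against 295, 532 and 152 CPM, with overlapping groups (adjusted p = 0.529). GRHL3 overlaps STPG1 on the other strand.

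None of the other 37 members was called, and 28 of them had a positive log2 fold change. Their median was 0.48, beside 0.02 over all tested genes, and their range was from -0.40 to 1.72. Without siYT_XMU c 30 were positive and the median was 0.46. SPRR1B, a small proline-rich protein of the cornified envelope, was already abundant at 2375, 1401 and 2134 CPM and read 2763, 3212 and 3154 CPM with XMU-MP1 (adjusted p = 0.186). The desquamation protease KLK7 read 981, 672 and 870.0 CPM against 2135, 2337 and 932 CPM (adjusted p = 0.22). In the plot of the list 4 of the 5 factors lie at the low end, and OVOL1 lies at 0.55 among the other members.

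**Figure D3:**
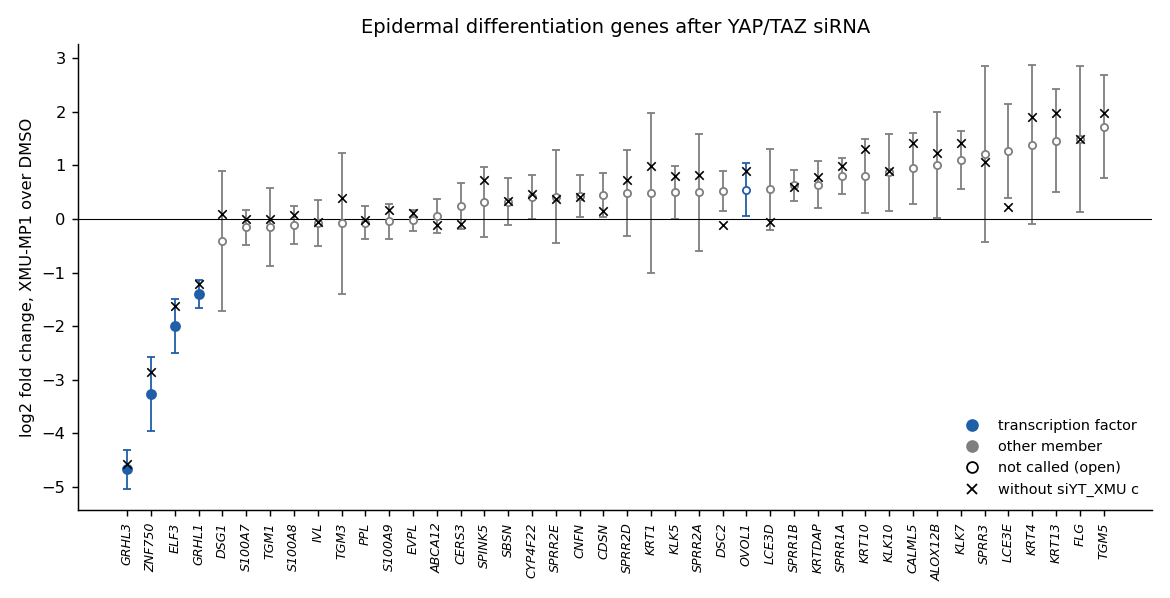
Log2 fold change ± SE of the 42 tested epidermal differentiation genes for XMU-MP1 against DMSO after YAP/TAZ siRNA; blue marks the 5 transcription factors, open symbols genes that were not called and crosses the value without siYT_XMU c. GRHL3, ZNF750, ELF3 and GRHL1 are the only filled symbols, at -4.66, -3.26, -2.00 and -1.4.

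Among genes outside that list, DLX3, a homeobox factor of epidermal differentiation, went from 17.7, 18.8 and 17.2 CPM to 0.528, 1.76 and 0 CPM (log2 fold change -4.32, SE 0.75, adjusted p = 0.00366). PRDM1, the repressor BLIMP1, fell from 60.3, 35.1 and 63.1 CPM to 3.20, 3.67 and 5.39 CPM (-3.73, SE 0.34, adjusted p = 0.000119). The groups did not overlap for either gene, and for DLX3, among the largest falls, separate groups were a condition of the choice. Of 32 p63-related genes 4 were lower and 1 higher, with a median of -0.07. They included the cell-cycle inhibitor SFN (-0.93, adjusted p = 0.0129), whose call ended without siYT_DMSO c (0.0543), as the list count went to 2. Of 14 luminal genes 3 were lower and 0 higher (2 higher at an unadjusted p under 0.05, 1 in DESeq2), with a median of -0.01. GATA3, the luminal lineage factor, fell from 19.2, 28.5 and 24.1 CPM to 8.66, 9.11 and 5.18 CPM (-1.62, SE 0.25, adjusted p = 0.0021). The luminal count was 1 without siYT_DMSO b, siYT_DMSO c or siYT_XMU a.

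Genes of the NF-kB and cytokine list were called both ways. Of 28 tested members 3 were higher and 3 lower, with a median of -0.06. Over all tested genes the shares were 4.19% higher and 7.92% lower, so the lower count lies near its share. IL1A, the alarmin interleukin 1 alpha, fell from 170.0, 98.4 and 235 CPM to 8.22, 7.62 and 1.66 CPM (log2 fold change -4.74, SE 0.48, adjusted p = 0.000182). RELA, the p65 subunit of NF-kB, fell from 203, 211 and 223 CPM to 108, 99.5 and 78.9 CPM (-1.15, SE 0.14, adjusted p = 0.000567). CXCL8 (chr4:73740569-73743716, plus strand), the neutrophil chemokine, rose instead, from 9.72, 2.17 and 12.9 CPM to 44.9, 68 and 92.6 CPM (3.05, SE 0.56, adjusted p = 0.00498). TNFAIP2 rose from 89.3, 47.6 and 64.5 CPM to 188, 325 and 387 CPM (2.16, SE 0.30, adjusted p = 0.000976). For each of the 4 genes the groups were separate. The apoptosis inhibitor gene BIRC3 fell by 2.12 (adjusted p = 0.00716), and BCL3, a nuclear IkB protein outside the list, fell from 67.4, 60.2 and 84.6 CPM to 6.07, 7 and 6.01 CPM (-3.47, SE 0.31, adjusted p = 0.000115). The higher count was 5 without siYT_XMU b. Of 22 interferon response genes 3 were lower, among them the RNA sensor DDX58 (-1.85, adjusted p = 0.00199), and 0 were higher (1 at an unadjusted p under 0.05, 1 in DESeq2).

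Among 16 genes of the BCL2 family, which set the threshold for mitochondrial apoptosis, 3 were lower and 1 higher, with a median of -0.33. BMF, which promotes apoptosis, fell from 64.9, 104 and 139.8 CPM to 3.64, 6.19 and 9.53 CPM, 16.6-fold (log2 fold change -4.05, SE 0.49, adjusted p = 0.000456). BCL2L1, which encodes the survival protein BCL-xL, fell from 194, 224 and 218 CPM to 74.8, 94.6 and 68.6 CPM (-1.42, SE 0.19, adjusted p = 0.00077) and overlaps the antisense gene ABALON. PMAIP1, which encodes the death promoter NOXA, rose by 1.98 (adjusted p = 0.00533). So the messages of both a promoter and an inhibitor of apoptosis fell. Of 27 p53 targets 3 were higher and 3 lower, with 6 higher without siYT_XMU c. GADD45B, a stress sensor, rose from 62.3, 58.3 and 44.4 CPM to 261, 561 and 223 CPM (2.67, SE 0.31, adjusted p = 0.0004), while the death receptor FAS and the nuclease gene AEN fell by 1.44 and 1.57 (adjusted p = 0.00242 and 0.00297).

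Calls in the stress pathway lists were mixed, beside shares over all tested genes of 4.19% higher and 7.92% lower. In the list for ATF4 and the unfolded protein response 5 of 30 were higher and 5 lower, with a median of 0.42. ATF4, the factor at its centre, rose from 269, 323 and 262 CPM to 878, 1139.7 and 586 CPM (log2 fold change 1.61, SE 0.33, adjusted p = 0.0082). PPP1R15A, which restores translation, rose by 1.84 (adjusted p = 0.00292), whereas CEBPB, a bZIP factor that pairs with ATF4, fell from 399.7, 306 and 385 CPM to 78.3, 98.2 and 48.7 CPM (-2.27, SE 0.24, adjusted p = 0.000214). CEBPG, its relative, fell by 1.60 (adjusted p = 0.00149). The higher count was 8 without siYT_XMU c, and the lower count 2 without siYT_DMSO a and 3 without siYT_DMSO c, siYT_XMU a or siYT_XMU b. Of 17 heat shock genes 4 were higher and 0 lower (0 lower at an unadjusted p under 0.05 and in DESeq2), a count that was 2 without siC_DMSO b or siYT_XMU b, 1 without siYT_DMSO a, b or c, and 0 in the 6 libraries alone. Of 23 hypoxia and glycolysis genes 3 were higher and 1 lower, with 7 higher without siYT_XMU c. The lower count was 0 without siC_DMSO b, siC_DMSO c, siYT_DMSO a, siYT_DMSO c, siYT_XMU a or siYT_XMU b, and in the 6 libraries alone. PFKFB3, which makes an activator of glycolysis, rose from 25.1, 16.5 and 17.3 CPM to 98.5, 201 and 145 CPM (2.92, SE 0.30, adjusted p = 0.000182). ADM, a vasodilator peptide gene, rose by 2.86 (adjusted p = 0.00366) and by 1.77 without siYT_XMU b (0.00115).

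Calls among cell cycle genes were mostly rises, beside shares over all tested genes of 4.19% higher and 7.92% lower. Of 30 G2/M genes 3 were higher and 28 had a positive log2 fold change, with a median of 0.73. At an unadjusted p under 0.05 in edgeR 12 were higher and 0 lower, and DESeq2 called 7 higher and 0 lower. The edgeR count of 3 was 10 without siYT_DMSO a, 8 without siYT_XMU b and 1 without siYT_DMSO b, siYT_DMSO c, siYT_XMU a or any 1 of the 6 control siRNA libraries. Of 28 G1/S genes 4 were higher and 1 lower, with a median of 0.04. The higher count was 2 without siYT_DMSO b, siYT_DMSO c or siYT_XMU a. The lower count was 0 without siC_DMSO b, siC_XMU b, siYT_DMSO a, siYT_DMSO b, siYT_XMU b or siYT_XMU c, and 2 without siYT_XMU a, and the 6 libraries alone gave 1 higher and 0 lower. PCNA, the sliding clamp of DNA replication, rose from 14.2, 14.7 and 15 CPM to 49.4, 46.7 and 25.5 CPM (log2 fold change 1.48, SE 0.21, adjusted p = 0.00127). DBF4, the regulator of the replication kinase CDC7 and no member of the list, rose from 4.30, 5.24 and 4.35 CPM to 25.8, 22.2 and 22.8 CPM (2.35, SE 0.18, adjusted p = 5.37e-05).

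Replication-dependent histone genes were higher in 5 of 28 tested members and lower in 0 (1 lower at an unadjusted p under 0.05, 0 in DESeq2), with a median of 1.5. H2BC6 rose from 0.667, 0.58 and 0.215 CPM to 23.7, 14 and 7.25 CPM (log2 fold change 4.97, SE 0.82, adjusted p = 0.00276), and H2BC12 from 109, 214 and 179 CPM to 396, 512 and 306 CPM (1.27, SE 0.26, adjusted p = 0.00816). Both genes had separate groups. Replication-dependent histone messages usually lack a poly(A) tail, and these libraries were made from polyadenylated RNA, so the values cover their polyadenylated forms. The copies of this family are near-identical, and how reads shared between them were counted is not stated. The count was 3 without siC_DMSO b, siC_XMU b, siC_XMU c, siYT_DMSO c, siYT_XMU a or siYT_XMU b.

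Of 21 actin and SRF target genes 3 were higher and 4 lower, with a median of 0.27. FHL2, a LIM protein of focal adhesions, fell from 56.1, 31.7 and 50.3 CPM to 14.5, 11.2 and 10.6 CPM (log2 fold change -1.92, SE 0.22, adjusted p = 0.000339). ZYX, the focal adhesion protein zyxin, fell from 93.9, 89.4 and 102 CPM to 40.4, 43.3 and 45.8 CPM (-1.14, SE 0.14, adjusted p = 0.000503). The higher count of 3 was 1 or 0 without 7 of the libraries, namely siC_XMU b or c, siYT_DMSO a, b or c, and siYT_XMU a or c. Of 24 TGF-beta and BMP response genes 4 were higher and 2 lower. The corepressor gene SKI rose from 70.2, 88.8 and 76.7 CPM to 177, 157 and 198 CPM (1.17, SE 0.18, adjusted p = 0.00202), and ID2, an inhibitor of bHLH factors, by 3.94 (adjusted p = 0.00368). The voom fit with library weights did not call ID2 (adjusted p = 0.0545). In edgeR the higher count of this list was 2 without siC_DMSO b, siYT_DMSO b, siYT_DMSO c or siYT_XMU c, and the lower count 1 without siYT_DMSO a, siYT_DMSO c or siYT_XMU a. Of 15 Notch genes 2 were higher and 0 lower (2 lower at an unadjusted p under 0.05, 1 in DESeq2), 1 of them without siYT_DMSO b or c. NRARP, a Notch feedback inhibitor, rose from 41.6, 48.7 and 18.9 CPM to 796, 543 and 514 CPM, 17-fold (4.08, SE 0.36, adjusted p = 0.000103).

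The counts by list can be read against the shares over all genes, 4.19% higher and 7.92% lower. With all libraries the immediate early list had the highest share of members called higher, 11 of 28. Without siYT_XMU c it had 12 of 28, below the cytosolic ribosomal proteins with 26 of 28 and the snoRNA host genes with 8 of 16. Since the lists were chosen with results of these data known, these shares are a description and carry no test of their own.

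**Figure D4:**
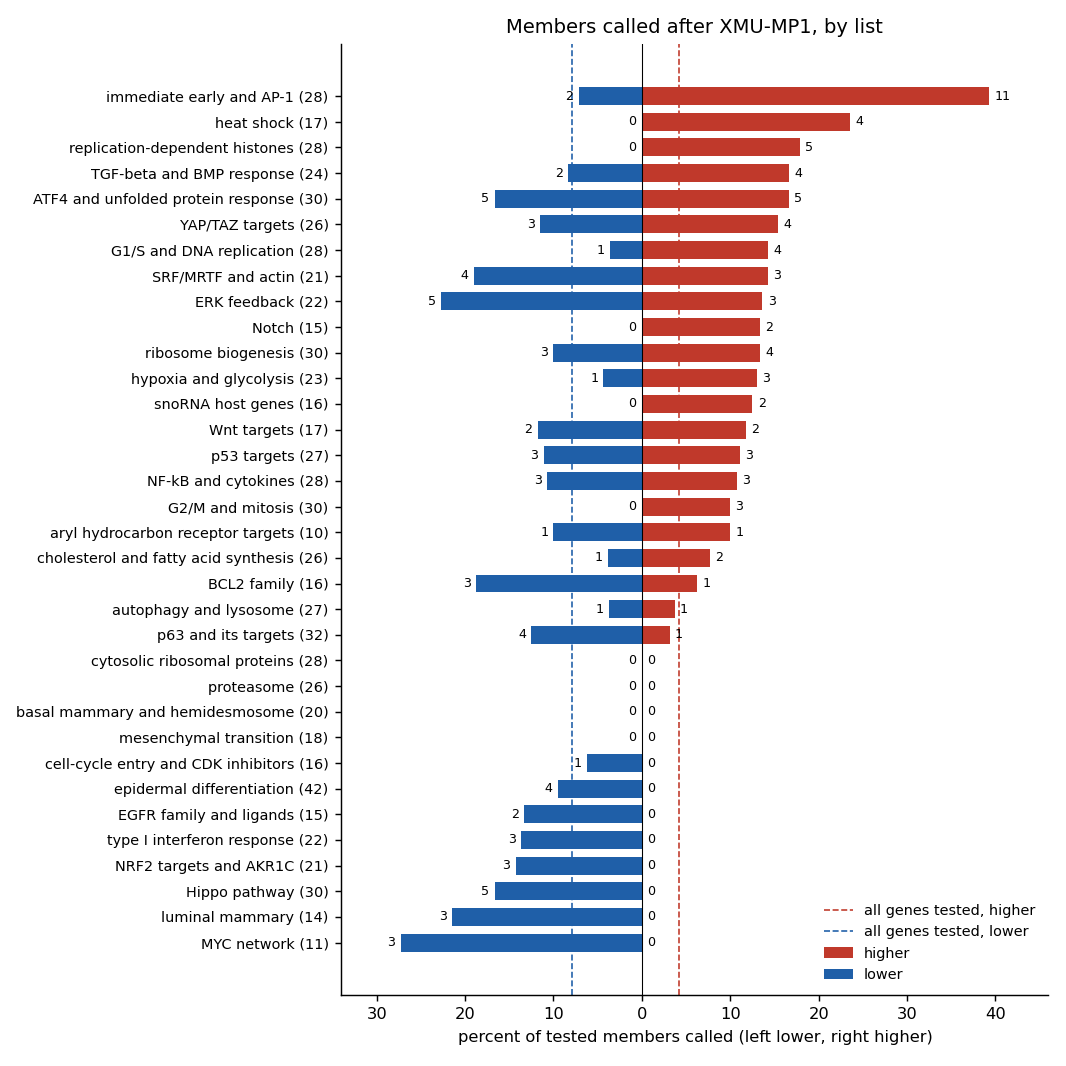
Percent of the tested members of each list called higher (red) and lower (blue) for XMU-MP1 against DMSO after YAP/TAZ siRNA, with dashed lines at the shares over all genes, 4.19 and 7.92%. The immediate early and AP-1 list reaches 11 of 28 higher, the epidermal list has 4 of 42 lower and 0 higher, and the ribosomal protein and proteasome lists have no call.

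The largest rises among well-expressed genes, besides ARC and NR4A1, came from genes nearly silent in siYT_DMSO. PYGM, the muscle form of glycogen phosphorylase, went from 0, 0.0773 and 0.182 CPM to 9.83, 43.3 and 20.7 CPM (log2 fold change 7.91, SE 0.96, adjusted p = 0.000467). RASD1, a RAS-related protein, went from 0, 0.367 and 0.116 CPM to 2.49, 82.4 and 23.4 CPM (7.65, SE 1.34, adjusted p = 0.0038), a rise the voom fit with library weights did not call (0.108). VGF, a neuropeptide precursor, went from 0.50, 0.986 and 1.09 CPM to 45.8, 64.4 and 36.9 CPM (5.80, SE 0.56, adjusted p = 0.000152). Separate groups were a condition of the choice of these 3 genes, and the spread within siYT_XMU was widest in RASD1. The non-coding gene LINC02818 rose by 6.25 (adjusted p = 0.000456) and the antisense gene ADAMTSL4-AS1 by 6.47 (adjusted p = 0.00458). Its neighbour ADAMTSL4-AS2 went from 0 in every siYT_DMSO library to 16.1, 3.75 and 16.2 CPM (adjusted p = 0.00113), while ADAMTSL4, which it overlaps, rose from 3.67, 1.95 and 1.95 CPM to 56.0, 13.4 and 63 CPM (4.13, SE 0.64, adjusted p = 0.00202).

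The largest falls, besides GRHL3, IL1A and DLX3, included THBD and NIPAL4. THBD, the anticoagulant receptor thrombomodulin, fell from 33.7, 20.4 and 56.9 CPM to 0.792, 1.24 and 0.622 CPM, 39.1-fold (log2 fold change -5.29, SE 0.50, adjusted p = 0.000141). NIPAL4, a gene of epidermal lipid barrier formation, fell from 77.4, 56.8 and 104 CPM to 1.41, 3.33 and 3.11 CPM (-4.96, SE 0.39, adjusted p = 5.38e-05). CLCF1, a cytokine of the interleukin 6 family, and the erythroid factor gene NFE2 fell by 4.35 and 4.37 (adjusted p = 0.000684 and 0.00938). TSKU, a small secreted leucine-rich protein, had the smallest adjusted p for this comparison among the genes named here. It fell from 133, 168 and 171 CPM to 12.4, 13.8 and 11.4 CPM (-3.64, SE 0.19, adjusted p = 6.77e-06). INAVA, an epithelial junction protein, fell from 133, 149.9 and 208 CPM to 22.3, 20.1 and 20.3 CPM (-2.97, SE 0.19, adjusted p = 1.95e-05). TFEB, the master factor of lysosome genes, fell from 21.1, 17.1 and 17.6 CPM to 1.56, 3.27 and 0.829 CPM (-3.21, SE 0.42, adjusted p = 0.000703).

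The 6 control siRNA libraries, which share no library with the comparison, show how far the response was shared between the siRNA arms. The arms differ in more than YAP and TAZ, and their stated siRNA concentrations differ. STK3, the gene of an inhibited kinase, averaged 24.4 CPM in siC_DMSO and 6.82 CPM in siYT_DMSO. LATS2 averaged 21.6 and 6.87 CPM, while STK4 averaged 66.3 and 55.2 CPM with overlapping groups. Ribosomal RNA was 1.02 to 2.52% of counts with control siRNA and 1.86 to 35.0% after the knockdown. Which of these lies behind a difference in response was not tested. With control siRNA XMU-MP1 raised 725 genes (4% of those tested) and lowered 955 (5.26%). Of the 761 genes higher after the knockdown, 215 were also called higher with control siRNA and 8 lower, and of the 1437 lower genes 342 were also lower and 28 higher. The sign was shared by 79.9% of the higher and 72.5% of the lower genes, beside 60.5% of all tested genes. Across 18143 genes the log2 fold changes of the arms had a Pearson r of 0.309 and a Spearman rho of 0.329, a description across genes, which are not independent replicates. MYC, GRHL3, TSKU and INAVA fell in both arms, with log2 fold changes of -2.10, -3.78, -3.51 and -1.95 in the control arm (adjusted p = 0.000221, 0.000221, 6.71e-06 and 0.000221). Leaving out siC_DMSO a, b or c, or siC_XMU a, b or c, brought the control-arm counts down to 260 to 455 higher and 369 to 562 lower, and leaving out siYT_XMU c brought them to 1134 and 1527.

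The test of the difference itself, the response after knockdown minus that with control siRNA, called 156 genes with a positive difference (0.860%) and 314 with a negative one (1.73%), and 3324 had an unadjusted p under 0.05. Among the genes called after the knockdown, 63 of 761 rises and 232 of 1437 falls also had a called difference in the same direction. The counts ran from 32 to 398 and from 54 to 608 when libraries were left out. They were 61 and 95 without siC_DMSO a, 32 and 54 without siC_DMSO b, 34 and 57 without siC_DMSO c, 38 and 62 without siC_XMU b, 35 and 61 without siC_XMU c, 32 and 64 without siYT_DMSO b, 47 and 71 without siYT_DMSO c, and 398 and 608 without siYT_XMU c. Of the 33 genes named for such a difference, 11 were called under every setting tried: CXCL8, DUSP2, GRHL1, H2BC5, IER3, MTFR2, NAB2, NET1, PFKFB3, PLPP3 and PYGM.

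DUSP2 and CXCL8 moved in opposite directions in the arms. DUSP2 fell from 1.85, 1.34 and 1.39 CPM to 0.461, 0.331 and 0.334 CPM with control siRNA, where it rose after the knockdown, a difference of 6.73 on the log2 scale (SE 0.53, adjusted p = 0.000578). CXCL8 fell from 15.6, 26.4 and 10.9 CPM to 3.07, 3.62 and 3.63 CPM with control siRNA (log2 fold change -2.36, adjusted p = 0.0206), a difference of 5.4 (SE 0.78, adjusted p = 0.00795). GRHL1 rose from 16.2, 13.4 and 8.10 CPM to 24.3, 24.6 and 21.1 CPM in the control arm (0.89, adjusted p = 0.0484) and fell after the knockdown, a difference of -2.29 (SE 0.36, adjusted p = 0.0117). The control-arm groups did not overlap for any of the 3 genes. IER3, an early response gene, rose from 23.7, 18 and 24.7 CPM to 79.2, 56.5 and 57.4 CPM after the knockdown and read 7.61, 8.78 and 9.52 against 6.01, 5.33 and 6.77 CPM in the control arm (difference 2.06, adjusted p = 0.00793). FOSB, at 1.35, 1.45 and 0.978 against 1.96, 2.07 and 2.44 CPM in the control arm, had a difference of 3.95 (SE 0.63, adjusted p = 0.0124), which the voom fit with library weights did not call.

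Other genes responded after the knockdown with little measured change in the control arm. NET1, a RhoA exchange factor, fell from 156, 108 and 130.1 CPM to 21.2, 21.9 and 28.8 CPM after the knockdown, with a difference of -2.06 (SE 0.25, adjusted p = 0.00446). PLPP3, a lipid phosphatase, fell from 21.1, 29.3 and 39.4 CPM to 2.17, 3.81 and 2.69 CPM (difference -3.47, SE 0.54, adjusted p = 0.0116). NAB2 differed by -3.20 (SE 0.45, adjusted p = 0.00789). PFKFB3 differed by 2.70 (SE 0.39, adjusted p = 0.00838) and PYGM by 7.21 (SE 1.14, adjusted p = 0.0117). MTFR2, a mitochondrial fission regulator, rose after the knockdown from 0.667, 1.33 and 1.19 CPM to 13.6, 9.42 and 16 CPM, and read 18.8, 18.2 and 15.2 against 19.7, 20.5 and 19.0 CPM in the control arm (difference 3.40, SE 0.40, adjusted p = 0.00389). The rise of MTFR2 thus started from a knockdown level far below that of the control arm. H2BC5 instead rose more in the control arm, from 2.22, 3.91 and 2.30 to 43.7, 71.5 and 38.3 CPM. After the knockdown it went from 40.7, 111 and 81.4 to 115, 156 and 146 CPM and was not called (log2 fold change 0.84, adjusted p = 0.156). The difference was -3.35 (SE 0.52, adjusted p = 0.0108).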

How the data were processed

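RNA was sequenced from 12 libraries of MCF10A, 3 in each of 4 groups. Per the file headers, the deposited table gives read counts (whole numbers) and FPKM values per gene, 24 columns, all used. The authors deposited the counts unscaled, and FPKM is the authors' value per transcript length and sequencing depth. Per the submitters' processing notes, cutadapt, FastQC, HISAT2, StringTie, edgeR and GRCh38.p13 were used, without versions, and how reads were counted, strand included, is not given in the sources used here.

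Counts were fitted in R 4.3.3 with edgeR 4.0.16 (filterByExpr, TMM, quasi-likelihood, 4 group means over 12 libraries, 8 residual degrees of freedom, prior count 0.125), and genes were called at a Benjamini-Hochberg adjusted p under 0.05 over 18143 genes, two-sided. The SE is the log2 fold change divided by the root of the F statistic. CPM is TMM-scaled. A count of 0 allows 3 counts, which covers counting error only. DESeq2 1.42.0, voom with library weights (limma 3.58.1), filters, scalings, a replicate block and left-out libraries were the alternatives. On simulated data from these libraries with 18143 genes, the fit of this comparison called 17% of genes changed 2-fold and 70% of those changed 4-fold. It also called 2 unchanged genes. Before the changes each simulated gene had the same mean in all groups. The changed genes were drawn above a minimum mean CPM, so the rates do not cover the lowest genes.

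Genes to follow through every fit were chosen by rule: 9 Hippo and target genes, the 10 largest called rises and falls with a mean FPKM of at least 5 and separate groups that were also called without siYT_XMU c, up to 4 called members by adjusted p of lists with at least 3 calls, and the 5 largest differences between arms per direction. Not all of these are named in the text. Other genes were added or named after their values were seen. The comparison and the 38 lists were chosen with earlier results of these data known. Residuals of siYT_DMSO and siYT_XMU libraries correlated at 0.0677, 0.128 and 0.0110 for the same letters a, b and c. For unlike letters they ran from -0.163 to 0.0751. The labels do not say whether the letters are pairs, and the main fit did not treat them as such.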

Additional observations from a re-analysis of the deposited data

Results flagged for a closer look

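Of the 470 genes whose difference between arms was called, 33 are named here. For these the response to XMU-MP1 after the knockdown differed from that with control siRNA in edgeR's test of the difference itself, at an adjusted p under 0.05. The values here are log2 differences, knockdown arm minus control arm. Under every setting tried the difference was called for DUSP2 (6.73), CXCL8 (5.4), PYGM (7.21), MTFR2 (3.40), PFKFB3 (2.70), IER3 (2.06), NET1 (-2.06), GRHL1 (-2.29), NAB2 (-3.20), H2BC5 (-3.35) and PLPP3 (-3.47). That of FOSB (3.95) was lost only in the voom fit with library weights.

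The other 21 were each lost when at least 1 library was left out, with a highest adjusted p between 0.0561 and 0.127. Among them, positive differences were found for the early genes NR4A1 (5.64) and JUNB (1.4), the ETS factor ETV5 (1.70), VGF (3.40), TNFAIP2 (1.99), the replication factor DBF4 (1.24), the nucleolar genes NCL (0.96) and NOLC1 (1.05), and the antibacterial protein PGLYRP4 (7.19). Negative differences were found for the differentiation factors DLX3 (-4.21), PRDM1 (-2.57) and GATA3 (-1.55), the bZIP factors CEBPB (-1.74) and CEBPG (-1.5), RELA (-1.02), DUSP6 (-1.81), TSC22D1 (-1.68), THBD (-2.82), LURAP1L (-3.12), the histone gene H2BC12 (-2.03) and the cytokine IL17C (-3.46). The libraries whose removal ended most of these calls were siC_DMSO a, b and c, siC_XMU b and c, and siYT_DMSO b and c.

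PGLYRP4 and IL17C are named for a change in the control arm at levels near the floor. PGLYRP4 read 0.0613, 0.688 and 0.165 CPM in siC_DMSO and 0 in siC_XMU, beside 34.5, 33.1 and 31.5 against 32.9, 45.9 and 33.8 CPM after the knockdown. IL17C read 0, 0 and 0.0551 CPM in siC_DMSO and 0.742, 0.505 and 0.44 CPM in siC_XMU, beside 24.2, 20.8 and 17.4 against 60.0, 48.4 and 43.5 CPM after the knockdown.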

How the results depend on the processing

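Called genes after the knockdown numbered 761 higher and 1437 lower, and 372 to 1277 and 787 to 1608 when 1 library was left out. They were 322 and 544 in the 6 libraries alone, 312 and 572 in those without siYT_XMU c, and 1690 higher in DESeq2. The control arm gave 260 to 1134 higher and 369 to 1527 lower without 1 library, 1305 and 1747 in DESeq2, 2186 and 2866 in voom, and 1238 and 1590 without siYT_XMU c and siYT_DMSO a. The difference between arms gave 32 to 398 and 54 to 608, 854 and 949 in DESeq2, 494 and 726 in voom, and 442 and 786 without those libraries. DESeq2 and voom use the same 12 libraries and another model, and the cause of these changes was not tested. Without the counts of ribosomal RNA and SLCO5A1 the calls after the knockdown were 767 and 1442. With a replicate block the calls were 698 and 1412, and 5 of the 128 calls followed through every fit were lost. These 128 include genes not named in the text and leave out some that are. Of these 128, 96 were called whichever library was left out and 73 under every setting. The calls lost among the 128 were 43 in the 6 libraries alone, 21 in voom, 6 without siYT_XMU c and 0 in DESeq2. LATS1 (0.05, not called) lay between -0.72 and 0.38 when 1 library was left out and turned negative without siYT_DMSO b (-0.08), without siYT_XMU c (-0.72), in voom (-0.50), with the replicate block (-0.058), in the 6 libraries without siYT_XMU c (-0.71) and without siYT_XMU c and siYT_DMSO a (-0.64), and OVOL1 (not called) lay between -0.0044 without siYT_XMU b and 0.88 without siYT_XMU c. The fits leaving out siYT_XMU c with siYT_DMSO a, and the 6 libraries without siYT_XMU c, were chosen after seeing the data. Low genes in siYT_XMU c are limited by its depth.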
